A study of Homo sapiens with 8 samples.

Results

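The 10 genes described here, BCL6, MEF2B, S1PR2, SERPINA9, GCSAM, PAX5, POU2AF1, TCF3, MME and SPIB, mark germinal centre B cells or build their transcriptional programme. They were taken by gene symbol from files with 60592 gene entries, all 10 were found once, and all 10 were among the 12063 genes that passed the filter on low values. RNA was sequenced in 8 libraries from WSU-DLCL2, an established cell line of human diffuse large B-cell lymphoma. Control cells (genotype WT in the labels) and cells overexpressing FDX1 (FDX1-OE) each received the solvent DMSO or 15 nM elesclomol (ES) for 48 h, with 2 libraries in each of the 4 groups. FDX1 is a mitochondrial ferredoxin, and elesclomol is a copper ionophore, a compound that brings copper ions across membranes. How the FDX1-OE cells were made, and whether they are a single clone, is not given in the sources used here. No label says that the paired libraries were grown as separate cultures, so p-values here reflect the spread between libraries alone, which may be technical.

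Germinal centres are the sites in lymphoid tissue where B cells divide fast, mutate their antibody genes and are selected. BCL6, a transcriptional repressor, holds B cells in this state by silencing genes of cell cycle arrest, DNA damage checkpoints, activation and plasma cell differentiation. Many diffuse large B-cell lymphomas keep the germinal centre programme, and some of the genes listed here, though not all, are used to recognise it. MEF2B, POU2AF1, TCF3, PAX5 and SPIB are transcription factors or coactivators of B cells, S1PR2 and GCSAM act at the plasma membrane, MME is the surface peptidase known as CD10, and SERPINA9 is a serpin typical of germinal centre B cells.

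FDX1, the overexpressed gene, stood at 10.8 and 10.4 FPKM (fragments scaled to gene length and library size) in control DMSO, 59.8 and 56.0 in FDX1-OE DMSO, 9.88 and 10.0 in control ES, and 60.7 and 59.4 in FDX1-OE ES. All 6 B cell markers were at 1 FPKM or more in each group, and their summed level was 1393 to 1576 FPKM. None of 10 T and NK cell markers reached 1 FPKM in any group, with CD2, CD3D and CD3G at 0 throughout. Their sum was 0.897 to 0.932 in FDX1-OE ES, 0.168 to 0.170 in control ES and 0.0243 to 0.151 in DMSO. At most 1 of 6 myeloid and 1 of 7 epithelial and fibroblast markers reached 1 FPKM. The myeloid marker AIF1 was called higher with ES in control cells (log2 change 0.85, limma adjusted p = 0.0319) and in FDX1-OE cells (0.64, adjusted p = 0.014). The part of these markers in the results was not tested. The summed FPKM per library was 408018 and 403024 in FDX1-OE ES and 445716 to 451027 in the other 6, and read depth is unknown. Genes at 1 FPKM or more numbered 11868 and 12047 in FDX1-OE ES and 10815 to 11320 in the other 6. The part of these differences in the results was not tested. The 2 FDX1-OE ES libraries stood apart: the mRNAs of the mitochondrial genome held 14.7% and 11.9% of their FPKM, against 16.9% to 17.6% in the other 6, and their replicates differed by a median of 0.16 on the log2 scale, against 0.08 to 0.09 in the other groups. Values are from bulk RNA, where fewer cells expressing a gene and less of its RNA per cell cannot be told apart.

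The sequence at the start sites is shown first for the genes whose levels moved furthest and whose promoters held rare motifs. RefSeq promoters (GRCh38.p14, 300 bases each, 250 before the start and 50 after) were found for 9 of the 10 genes, 13 promoters in all. They were searched on both strands for 7 motifs. The octamer ATGCAAAT, the site read by POU2F1 and POU2F2 with the coactivator POU2AF1, lay in the SERPINA9 and MEF2B promoters. It is in 1.77% of the 35116 promoters searched. SERPINA9 held it 2 times, starting 133 and 96 bases before the start site, and 14 of all promoters (0.0399%) held it 2 times or more. Both SERPINA9 copies lay in a stretch of 37 bases that follows itself directly with no difference, at -158 to -122 and -121 to -85. The 30 bases that end each copy are printed 5′ to 3′ along the gene, with the octamer, which reads on the opposite strand, in capitals. They lie on the minus strand at chr14:94476319-94476348 and chr14:94476282-94476311, inside SERPINA9 in GENCODE 29 and overlapping the annotated 5′ UTR of transcripts that start further upstream.
SERPINA9, first copy: gaataaaaataatatatcATTTGCATgtct
SERPINA9, second copy: gaataaaaataatatatcATTTGCATgtct
The MEF2B octamer starts 82 bases before the start site, on the same strand as the gene. The stretch from -250 to -27, on the minus strand at chr19:19170290-19170513, lies upstream of every annotated MEF2B transcript and within the longer read-through gene BORCS8-MEF2B.
MEF2B, upstream: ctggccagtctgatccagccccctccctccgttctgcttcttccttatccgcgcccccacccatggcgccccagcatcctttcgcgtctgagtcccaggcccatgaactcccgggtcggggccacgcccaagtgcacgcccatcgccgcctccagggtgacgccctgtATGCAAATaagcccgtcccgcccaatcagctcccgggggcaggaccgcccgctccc

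A BCL6 core, TTCCTAGAA, the kind of site that the BCL6 protein itself reads, lay 37 bases after the start of 1 of the 2 BCL6 promoters. It is in 0.373% of all promoters. The 20 bases that hold it, in the first exon and 5′ UTR on the minus strand at chr3:187745419-187745438, are printed with the core, which reads on the opposite strand, in capitals.
BCL6, start: agaagtTTCTAGGAAaggcc
The E-box CAGCTG, a site of E proteins such as TCF3, lay in a BCL6 promoter and in that of SERPINA9, and in 17.9% of all promoters. The short MEF2 core TANNNNTA lay in those of GCSAM, SERPINA9 and SPIB, and in 29.9% of all. The SERPINA9 copies of it fall inside the repeated stretch and do not overlap the octamers. The ETS-IRF core GGAANNGAA lay in an MME promoter (7.79% of all), and the interferon response core GAAANNGAA (8.11%), which differs from it by 1 letter, and the PU box GAGGAAGT (2.59%) lay in none of the 13. These matches describe letters only.

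In control cells with DMSO, levels per gene length ran from 283 ± 1.59 FPKM (SD, n = 2) for MEF2B to 9.79 ± 0.813 for GCSAM. MEF2B stood at percentile 98.5 of the 12063 genes tested and GCSAM at 53.6. Between them came TCF3 (199 ± 8.23), BCL6 (124 ± 1.72), POU2AF1 (99.3 ± 0.173), S1PR2 (64.3 ± 2.25), SPIB (61.8 ± 3.71), SERPINA9 (47.9 ± 0.162), PAX5 (39.0 ± 0.414) and MME (26.4 ± 0.888). The only neighbours in this order whose libraries overlapped were S1PR2 and SPIB. In FDX1-OE ES the order had changed in the middle: SERPINA9 moved from the seventh place to the fifth, and S1PR2 from the fifth to the eighth.

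**Figure D1:**
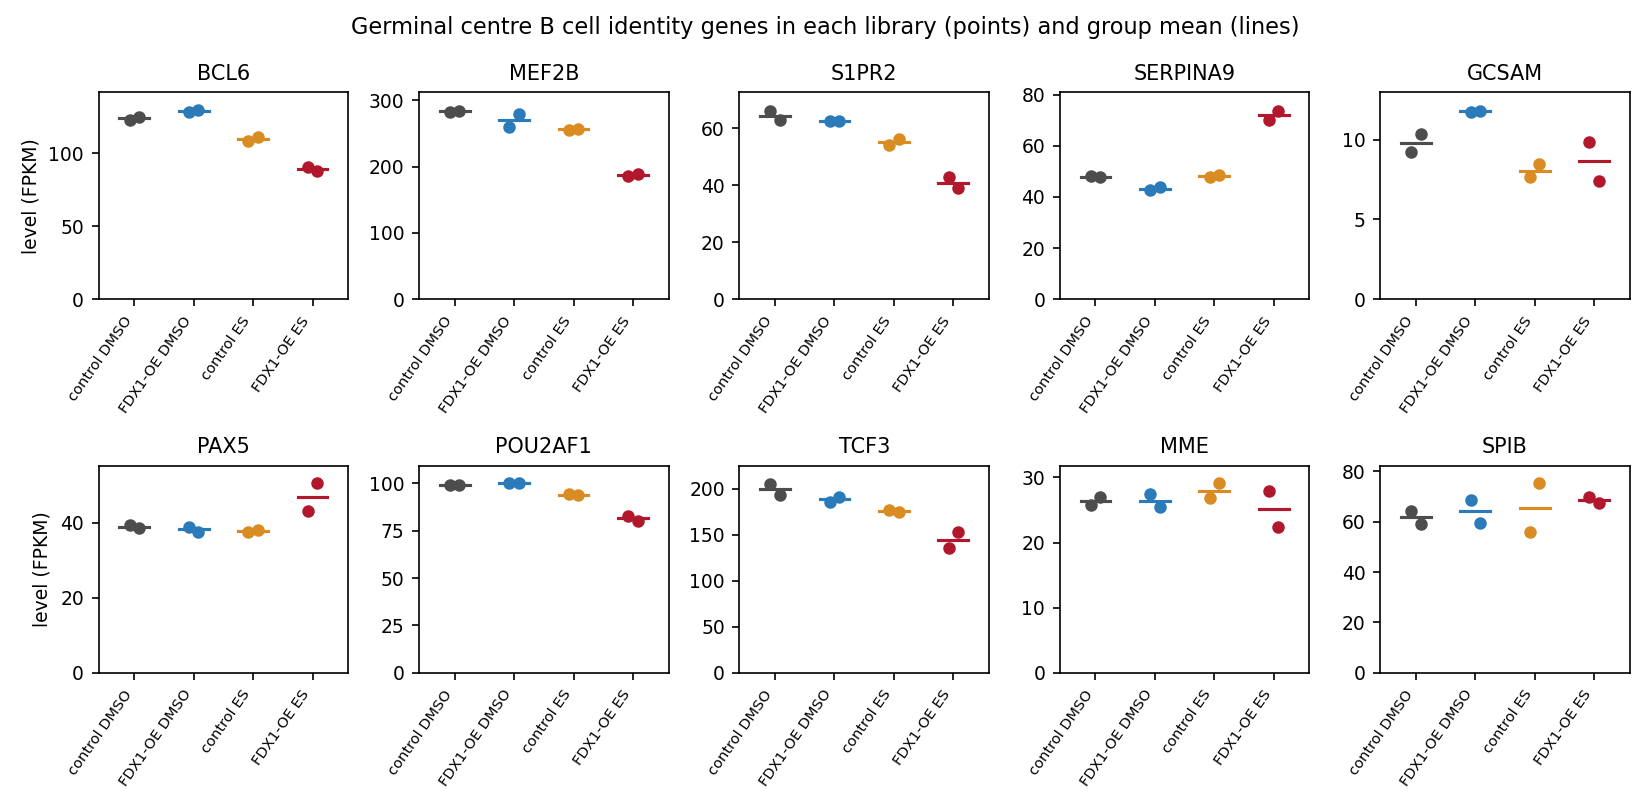
Level of each gene in FPKM (vertical axes start at 0) in every library, as points, with the mean of each group as a line. BCL6, MEF2B, S1PR2, POU2AF1 and TCF3 were lowest in both FDX1-OE ES libraries and SERPINA9 and PAX5 highest in both, while GCSAM, MME and SPIB showed no such separation.

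The first comparison asks what FDX1 overexpression did without elesclomol. None of the 10 genes was called in either direction between FDX1-OE and control cells in DMSO (limma over all 12063 genes, Benjamini-Hochberg adjusted p below 0.05), where 0.00829% of all genes were called higher, which is FDX1 alone, and 0.00% lower. At an unadjusted p below 0.05 stood 1 of the 10 genes, SERPINA9, and 420 of all genes. Differences on the log2(FPKM + 1) scale ran from -0.14 for SERPINA9 to 0.25 for GCSAM, with a median of -0.01. SERPINA9 was at 48.1 and 47.8 FPKM in control and 42.7 and 43.9 in FDX1-OE cells, and GCSAM at 9.21 and 10.4 against 11.7 and 11.8. The libraries of the 2 groups did not overlap for either gene, but the adjusted p was 0.999 for both. How many of all genes separate in this way was not counted.

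With elesclomol in FDX1-OE cells 8 of the 10 genes were called. SERPINA9 and PAX5 rose, BCL6, MEF2B, S1PR2, GCSAM, POU2AF1 and TCF3 fell, and MME and SPIB were not called. Thus 2 of 10 were called higher, where 47.1% of all genes were, and 6 of 10 lower, where 13.7% of all genes were. The median of the 10 was -0.34 and that of all genes tested 0.25 on the log2(FPKM + 1) scale. With median-ratio scaling, which sets the median of all genes to 0.00, 3069 of the 12063 genes were called higher and 3287 lower. In the main fit these counts were 5682 and 1652. Higher calls thus made up 48.3% of all calls in place of 77.5%. Of the 10 genes, 1 was called higher and 7 lower with that scaling.

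BCL6, the repressor (chr3:187721377-187745727 in GENCODE 29, GRCh38), was at 128 and 129.5 FPKM in FDX1-OE DMSO and at 90.6 and 88.0 in FDX1-OE ES. Both treated libraries lay below all other 6. The level fell by 30.7%, a log2 change of -0.52 (SE 0.05, adjusted p = 0.000118). MEF2B, a transcription factor that activates BCL6 in germinal centre B cells (chr19:19145568-19170289), went from 260.1 and 279 FPKM to 186 and 189. It too was lowest in the treated FDX1-OE libraries, with a fall of 30.3%, or -0.52 (SE 0.06, adjusted p = 0.00015). The read-through gene BORCS8-MEF2B, which overlaps MEF2B on the same strand, was listed at 13.2 to 19.3 FPKM over the 8 libraries, so fragments between the pair are uncertain.

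S1PR2 is a receptor that confines B cells to the germinal centre through the G protein GNA13. It was at 62.3 and 62.5 FPKM in FDX1-OE DMSO and at 42.9 and 38.9 in FDX1-OE ES. The groups did not overlap, and the change was -0.60 (SE 0.07, adjusted p = 0.000176). S1PR2 (chr19:10221433-10231331) overlaps DNMT1 on the same strand in GENCODE 29. DNMT1, the maintenance DNA methyltransferase, was at 188 and 183 FPKM in FDX1-OE DMSO and 132 and 136 in FDX1-OE ES, a change of -0.47 (adjusted p = 0.0002), and its part in the S1PR2 value was not tested. GCSAM, an adaptor that restrains the motility of germinal centre B cells, was at 11.7 and 11.8 FPKM and then 9.87 and 7.40. Its change was -0.42 (SE 0.13, adjusted p = 0.0196). That call was lost in 5 of 16 alternatives: without FDX1-OE DMSO library 1 (adjusted p = 0.0746) or 2 (0.0778), without FDX1-OE ES library 2 (-0.23, 0.0725), with no filter (0.0704) and with equal FPKM totals (-0.29, 0.0679).

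SERPINA9 (chr14:94462717-94479689), the gene with the repeated octamer stretch, moved the other way. It was at 42.7 and 43.9 FPKM in FDX1-OE DMSO and at 70.2 and 73.5 in FDX1-OE ES, above all other libraries. The level rose 1.66-fold, a log2 change of 0.72 (SE 0.06, adjusted p = 4.57e-05), which is 0.47 above the median of all genes. PAX5, the factor that commits cells to the B lineage, was at 38.9 and 37.6 FPKM and then 43.2 and 50.6. Its change of 0.28 (SE 0.08, adjusted p = 0.0147) is 0.03 above the median of all genes, and with median-ratio scaling it was -0.0007 (adjusted p = 0.994), so its direction rests on the scaling. The PAX5 call was also lost with only the groups compared (limma adjusted p = 0.0565) and without FDX1-OE DMSO library 1 (change 0.30) or 2 (0.26).

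POU2AF1, the octamer coactivator, was at 100.1 and 100.3 FPKM in FDX1-OE DMSO and at 82.9 and 80.3 in FDX1-OE ES, a change of -0.29 (SE 0.05, adjusted p = 0.00167). TCF3, an E protein needed for B cell development, was at 186 and 191 FPKM and then 136 and 153, a change of -0.38 (SE 0.07, adjusted p = 0.00182). For both genes the treated FDX1-OE libraries were the lowest of the 8. MME was at 27.5 and 25.5 FPKM and then 27.9 and 22.4, so the groups overlapped (-0.08, adjusted p = 0.526), though MME was called lower with median-ratio scaling (-0.36, adjusted p = 0.0174) and without FDX1-OE ES library 1 (-0.23, adjusted p = 0.0349). SPIB, an ETS factor related to PU.1, was at 68.8 and 59.3 FPKM and then 70.0 and 67.3, also overlapping (0.10, adjusted p = 0.521).

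Over all 8 libraries, the FDX1-OE ES pair lay above the other 6 for 2 of the 10 genes, SERPINA9 and PAX5, where this held for 46.3% of all genes. It lay below the other 6 for 5 of the 10, BCL6, MEF2B, S1PR2, POU2AF1 and TCF3, where this held for 14.4% of all genes. The ratio of 2 genes within a library does not depend on a scaling factor of that library. SERPINA9 over S1PR2 was 0.686 to 0.880 in the other 6 libraries and 1.64 and 1.89 in FDX1-OE ES. PAX5 over BCL6 was 0.291 to 0.346 and then 0.476 and 0.575. Each pair sets a gene that lay above the other 6 libraries over one that lay below them. Both ratios therefore had to separate, and they add no support to the single genes.

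**Figure D2:**
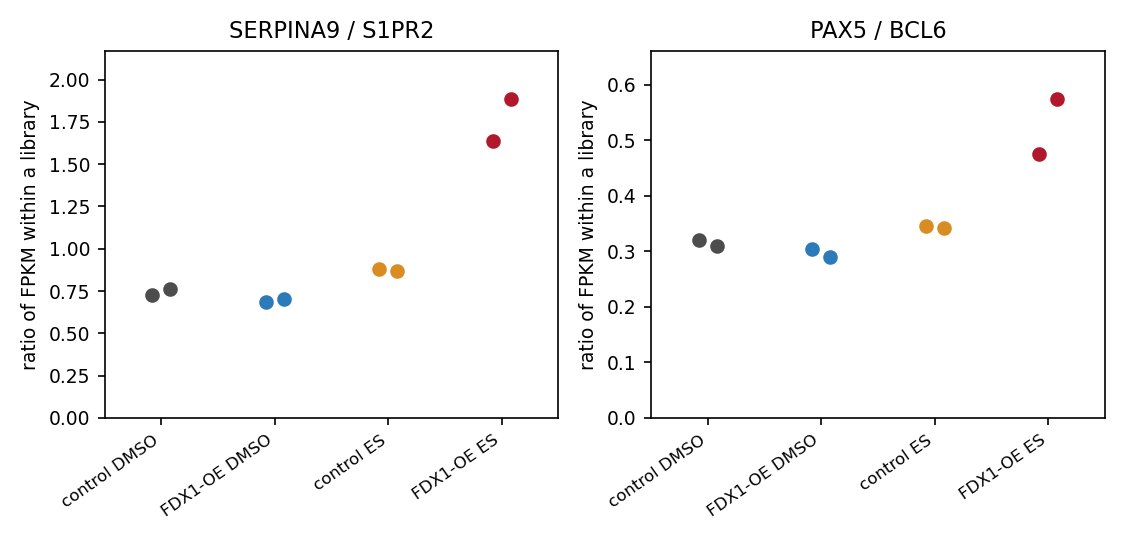
Ratio of FPKM within each library (points, axes from 0) for SERPINA9 over S1PR2 and PAX5 over BCL6, by group. In both panels the 2 FDX1-OE ES libraries lie above the other 6, at 1.64 and 1.89 on the left and at 0.476 and 0.575 on the right. Each pair sets a gene highest in these libraries over one lowest in them, so the separation was fixed by the choice of pair.

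In control cells none of the 10 genes was called with elesclomol. All genes were called higher in 6.74% of cases and lower in 1.00%, and the median was 0.09 for all genes and -0.11 for the 10. At an unadjusted p below 0.05 stood 4 of the 10, and 3305 of all genes. BCL6 was at 123 and 125 FPKM in control DMSO and 109 and 111 in control ES (-0.17, SE 0.05, adjusted p = 0.084). S1PR2 was at 65.9 and 62.8 and then 54.2 and 56.1 (-0.22, adjusted p = 0.0825). The libraries of the 2 groups did not overlap for either gene, and the share of all genes without overlap was not counted.

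MEF2B was at 282 and 284 FPKM in control DMSO and 256 and 257 in control ES (-0.14, adjusted p = 0.142). TCF3 was at 205 and 193 and then 177 and 174 (-0.18, adjusted p = 0.141). Both were lower in each treated library, and neither passed the test in the main fit. With median-ratio scaling BCL6, MEF2B, S1PR2 and TCF3 were called lower (-0.29, -0.26, -0.33 and -0.30, limma adjusted p 0.0249 to 0.0471). Of all 12063 genes, 394 were called lower with that scaling, against 121 in the main fit. The same 4 genes were called lower with only the groups compared (limma adjusted p 0.0384 to 0.0469), where 349 of all genes were called lower. Leaving FDX1-OE ES library 1 or 2 out of the fit changes the shared estimate of the spread and not the libraries compared. The values for BCL6 (-0.17), S1PR2 (-0.22) and TCF3 (-0.18) then stayed as they were. SERPINA9 was at 48.1 and 47.8 and then 47.7 and 48.8 (0.01, adjusted p = 0.938), a value whose sign turned with median-ratio scaling and quantile normalisation. PAX5, POU2AF1, MME, GCSAM and SPIB had log2 values from -0.25 for GCSAM to 0.08 for MME.

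Whether the elesclomol effect differed between the cells was tested by the interaction. It was called for 4 of the 10 genes: SERPINA9 higher, where 13.9% of all genes were, and BCL6, MEF2B and S1PR2 lower, where 5.06% were. The effect in FDX1-OE less that in control cells was 0.71 for SERPINA9 (SE 0.08, adjusted p = 0.00242), -0.37 for MEF2B (SE 0.08, adjusted p = 0.0173), -0.35 for BCL6 (SE 0.07, adjusted p = 0.0179) and -0.38 for S1PR2 (SE 0.09, adjusted p = 0.0285). The median was -0.18 for the 10 and 0.15 for all genes. SERPINA9 was called in all 15 alternatives (adjusted p up to 0.0221), while BCL6, MEF2B and S1PR2 lost the call in 7, 6 and 8 of them. Only SERPINA9 was called without control DMSO library 1, control DMSO library 2, FDX1-OE DMSO library 2, control ES library 1 or control ES library 2, and without FDX1-OE DMSO library 1 MEF2B was called beside it. The adjusted p for BCL6, MEF2B and S1PR2 then lay at or below 0.0806, 0.0821 and 0.108, and over all alternatives reached 0.0806, 0.213 (quantile normalisation) and 0.108. POU2AF1 (-0.22, adjusted p = 0.0728), PAX5 (0.33, adjusted p = 0.0749) and TCF3 (-0.20, adjusted p = 0.173) were not called in the main fit. With median-ratio scaling POU2AF1 (-0.39, limma adjusted p = 0.0135) and TCF3 (-0.38, 0.0416) were called lower, where 1134 of all genes were. With equal FPKM totals PAX5 was called higher (0.46, limma adjusted p = 0.022), where 3466 of all genes were. Whether a difference between the cells was called for these 3 thus depended on the processing.

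**Figure D3:**
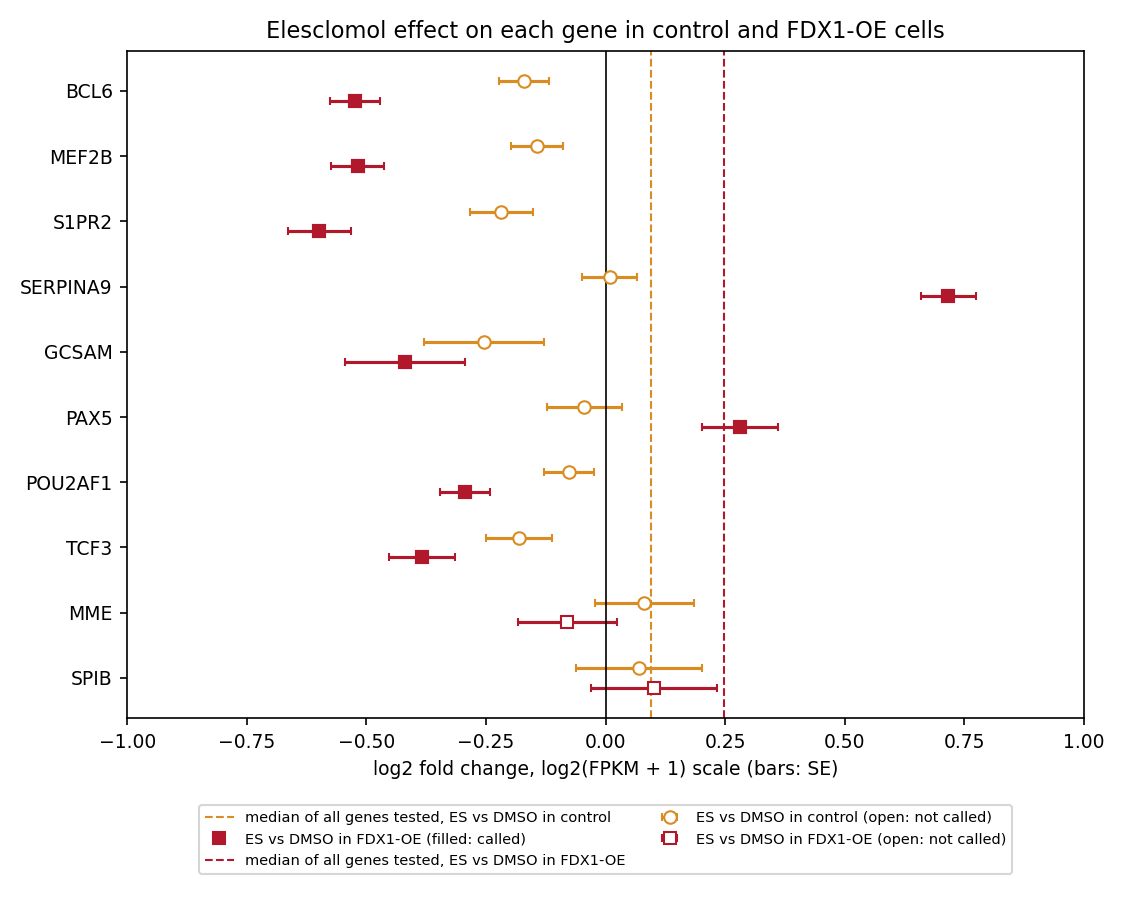
Elesclomol effect on each gene in control cells (circles) and FDX1-OE cells (squares), as log2 fold change on the log2(FPKM + 1) scale with SE bars, with filled symbols for called genes and dashed lines at the medians of all genes tested. In control cells no gene is called, and in FDX1-OE cells BCL6, MEF2B and S1PR2 lie between -0.60 and -0.52 and SERPINA9 at 0.72.

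FDX1-OE and control cells were also compared directly in elesclomol, with the same FDX1-OE ES libraries as above. Here 2 of the 10 genes were called higher, where 31.1% of all genes were, and 5 lower, where 10.4% were. SERPINA9 was at 47.7 and 48.8 FPKM in control ES and 70.2 and 73.5 in FDX1-OE ES (0.56, SE 0.06, adjusted p = 0.000495). MEF2B was at 256 and 257 against 186 and 189 (-0.45, SE 0.06, adjusted p = 0.00101), S1PR2 at 54.2 and 56.1 against 42.9 and 38.9 (-0.42, SE 0.07, adjusted p = 0.00235), and BCL6 at 109 and 111 against 90.6 and 88.0 (-0.30, SE 0.05, adjusted p = 0.00371). None of these 4 overlapped between the groups, and the share of all genes without overlap was not counted. All 4 were called in every alternative run. PAX5 (0.30, adjusted p = 0.0185), TCF3 (-0.28, adjusted p = 0.0137) and POU2AF1 (-0.20, adjusted p = 0.0161) were called too. These 3 calls were lost without control ES library 1, with adjusted p values of 0.0929, 0.0792 and 0.0891, and without control ES library 2, with 0.0704, 0.0567 and 0.068. PAX5 was also lost with median-ratio scaling (0.13, adjusted p = 0.255) and with no filter (0.0517). TCF3 was lost with equal FPKM totals (-0.14, adjusted p = 0.12) and quantile normalisation (-0.14, 0.138), POU2AF1 with the same settings (-0.06, 0.312 and -0.14, 0.101), and all 3 with only the groups compared. GCSAM (0.08), MME (-0.16) and SPIB (0.08) were not called in the main fit. The sign turned for GCSAM with median-ratio scaling and quantile normalisation and for SPIB with median-ratio scaling. MME was called lower with median-ratio scaling (-0.33, limma adjusted p = 0.0381), where 2218 of all genes were. Without FDX1-OE ES library 1 its value was -0.31.

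Other genes of the same programme were followed in FDX1-OE cells with elesclomol. Some of them reached 1 FPKM only in the FDX1-OE ES libraries, so they passed the filter through the group where they are high. Their levels are given with no test, and they are in none of the counts that follow. Over all 11635 genes that did not pass in this way, 45.3% were called higher and 14.2% lower, with a median of 0.23. With median-ratio scaling these shares were 23.2% and 28.3%. Each list count below is to be read beside these shares.

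Of 15 further germinal centre markers counted, 2 rose and 5 fell, with a median of -0.04, and with median-ratio scaling 1 was called higher and 9 lower. RGS13, a regulator of G protein signalling, fell by 1.06 (adjusted p = 0.000728) and ASB13 by 0.63. CD38, a surface enzyme, rose by 0.58. CXCR5, the receptor that guides B cells to follicles, was at 0.342 to 0.685 FPKM in the other 6 libraries and at 1.48 and 1.51 in FDX1-OE ES.

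Of 10 markers of the activated B cell type of lymphoma counted, 8 rose and none fell, with a median of 0.76, against 45.3% and 14.2% of all genes. Over the 3 scalings tried 5 to 8 were called higher and none lower. IRF4, a factor of activated B and plasma cells, was at 1.54 and 1.55 FPKM in FDX1-OE DMSO and 5.84 and 7.30 in FDX1-OE ES (1.57, adjusted p = 3.84e-05). CCDC50 (1.23) and the AP-1 family member BATF (1.32) rose too. In control cells IRF4 was at 1.92 and 1.75 FPKM in DMSO and 2.84 and 3.25 in ES. CCDC50 was there at 3.49 and 3.14 and then 5.44 and 5.84, so both were also higher with ES in control cells. BATF overlapped there (1.46 and 0.729, then 1.17 and 1.80). LIMD1 was at 0.454 to 0.854 FPKM in the other 6 libraries and at 1.84 and 2.59 in FDX1-OE ES.

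Of 10 genes known to be repressed by BCL6 that were counted, 6 rose and none fell, with a median of 0.41, against 45.3% and 14.2% of all genes. With median-ratio scaling 4 were called higher and 1 lower. CXCR4, the receptor of dark zone B cells (0.63, adjusted p = 0.000201), the cell cycle inhibitor CDKN1B (0.61) and the checkpoint kinase CHEK1 (0.51) were called higher in each of 16 alternatives. CDKN1A, another cell cycle inhibitor, was at 0.189 to 0.933 FPKM in the other 6 libraries and at 5.47 and 7.06 in FDX1-OE ES. CD44, an adhesion receptor, was at 0.0541 to 0.357 FPKM in the other 6 libraries and at 1.31 and 2.00 in FDX1-OE ES.

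Partners of the 10 genes were called in both directions. Among 12 corepressors and regulators of BCL6, 7 rose and 1 fell (median 0.29), near the share and median of all genes, and 2 were called higher and 4 lower with median-ratio scaling. NCOR1 (0.75) and BCOR (0.55), corepressors that bind BCL6, were called higher in each of 16 alternatives. Among 10 MEF2 family members and partners, 7 rose and 1 fell (median 0.38, or 4 up and 2 down after median-ratio scaling), among them the acetyltransferases CREBBP (1.17) and EP300 (0.57), HDAC5 (0.76) and MEF2A (0.72).

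Of 5 receptors and signalling genes counted that place B cells in or out of the germinal centre, 3 rose and 1 fell (median 0.52, or 2 up and 2 down after median-ratio scaling). The gene that fell was GNA13, the G protein of S1PR2, at a mean of 50.2 ± 0.322 FPKM (SD, n = 2) in FDX1-OE DMSO and at 43.6 and 33.7 in FDX1-OE ES. Its change was -0.38 (adjusted p = 0.0147), and the call was lost in 4 of 16 alternatives (adjusted p up to 0.0682). P2RY8, a confinement receptor that signals through GNA13, rose by 0.53. CCR7, a receptor that draws B cells towards T cell zones, was at 0 to 0.723 FPKM in the other 6 libraries and at a mean of 6.60 ± 1.98 (SD, n = 2) in FDX1-OE ES.

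Of 9 genes activated by PAX5 counted, 3 rose, a share below that of all genes, and 1 fell, with a median of 0.22. With median-ratio scaling none was called higher and 3 lower. CD22, an inhibitory coreceptor, fell by 0.53 (adjusted p = 0.000254) and CD72 rose by 0.47, while LEF1 (0.37) and CD79A (0.22) were called higher but lost the call in 3 and 5 of 16 alternatives, with CD79A down to -0.07. The octamer factors, partners of POU2AF1, split: POU2F1 was called higher (0.37, adjusted p = 0.0125) and POU2F2 lower (-0.21, adjusted p = 0.0318). POU2F1 changed sign and POU2F2 lost the call in some alternatives, down to -0.05 for POU2F1 and up to an adjusted p of 0.404 for POU2F2.

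Beside TCF3, 6 related genes were tested: the E proteins TCF4 and TCF12, the inhibitors ID1, ID2 and ID3, and the cyclin CCND3. TCF12 rose by 1.11 (adjusted p = 2.26e-05), and ID1 and ID3, which block E proteins, fell by 0.57 and 0.43. Of 4 ETS relatives of SPIB counted, ELF1 (0.58) rose and ETS1 (-0.36) fell. ETV6 was at 0.281 to 0.584 FPKM in the other 6 libraries and at 1.16 and 1.40 in FDX1-OE ES.

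Of 13 further B lineage transcription factors counted, 4 rose and 3 fell, against 45.3% and 14.2% of all genes. The median was 0.09, below the 0.23 of all genes, and 4 were up and 6 down after median-ratio scaling. IRF4, RUNX3 (1.17) and RUNX1 (0.55) were among those that rose, and ETS1, given above, among those that fell. Of 5 plasma cell genes tested, IRF4, XBP1 (0.56) and TNFRSF17 (0.32) were called higher and MZB1 (-0.46) lower. Of all genes, 45.3% were called higher and 14.2% lower. With median-ratio scaling 2 of the 5 were called higher and 1 lower. TNFRSF17 lost the call in some alternatives, down to 0.05. Of the 6 B cell markers, CD79A was called higher, with the exception just given, and CD22, CD79B (-0.34) and CD37 (-0.33) lower. Their median was -0.27, also below the 0.23 of all genes. With median-ratio scaling none of the 6 was called higher and 5 lower. Several genes stand in more than 1 of these lists, among them IRF4, CXCR4, CXCR5 and CD22.

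**Figure D4:**
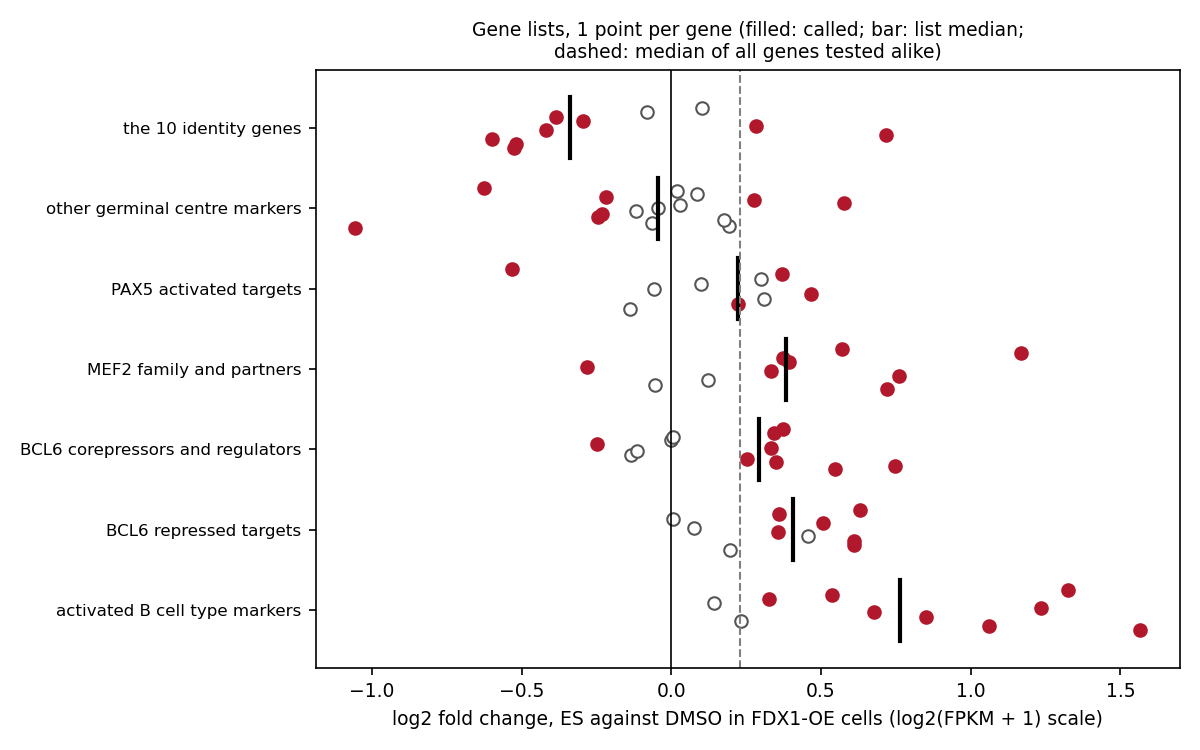
Log2 fold change of ES against DMSO in FDX1-OE cells on the log2(FPKM + 1) scale, with 1 point for each gene counted of 7 lists (without genes that reach 1 FPKM only in FDX1-OE ES), filled where called, a bar at the list's median and a dashed line at the median of all genes counted in the same way. The 10 identity genes have their median at -0.34, left of the dashed line at 0.23, and the activated B cell type markers at 0.76. A low median was not particular to the identity genes: that of the 6 B cell markers, a list not drawn here, was -0.27.

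For the 4 genes with the widest range of group means, the genes most alike over the 8 libraries were found by Pearson's r of log2 values, as a description over 4 groups of 2 libraries. For SERPINA9 these were DIDO1, ZNFX1 and POLD3 (r 0.993 to 0.994), and for S1PR2 they were USP2, MANF and TIMM23 (0.995 to 0.998). For MEF2B they were DDX39A, EIF4H and SDF2L1 (0.993 to 0.994), and for BCL6 they were MAFK, LRIG1 and DFFB (0.993 to 0.994).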

How the data were processed

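RNA was sequenced in 8 libraries, and the authors deposited 1 file per library with a value per gene symbol. No header names the unit. The deposited values were taken as FPKM because they are not whole and their sums differ between libraries. HISAT2, HTSeq and R 3.2.0 are listed in the submitters' processing notes, with the build hg19, but not what each did. Which tool made the FPKM, and whether strand was used, is not given in the sources used here. With no counts, depth is unknown. Symbols shared by several entries (1059 of 60592) were kept apart and none is named.

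Genes at 1 FPKM or more in at least 2 libraries were tested (12063) as log2(FPKM + 1), which understates changes of low genes. A model with a mean for each of the 4 groups was fitted to the 8 libraries in limma 3.58.1 (R 4.3.3, eBayes with trend, 4 residual and 4.25 prior degrees of freedom). Tests were two-sided with Benjamini-Hochberg adjustment over all genes tested, and the method was tested on simulated data. There few genes were changed, evenly up and down, and the spread of a gene was the same in all groups. That test therefore does not cover changes as broad, or groups as unequal in spread, as in these data. Groups followed the labels. Comparisons numbered 5: FDX1-OE with control cells under DMSO and under ES, ES with DMSO in each kind of cell, and the interaction.

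The 10 genes and the lists were chosen with earlier results of these data known. All 10 are named, and of each list up to 4 genes with the smallest p. A gene of 1 list is not reported here. List counts for ES in FDX1-OE cells leave out genes at 1 FPKM only in FDX1-OE ES (428 of all 12063). Likeness was ranked by Pearson's r over the 8 libraries, leaving out clone-type names. Alternatives were a pseudocount of 0.1, no filter, median-ratio scaling, quantile normalisation, equal FPKM totals, array weights, only the groups compared, a replicate block, and leaving out each library. Gene positions are from GENCODE 29 (GRCh38) and promoters from RefSeq (GRCh38.p14). Both differ from the build in the notes and were joined by symbol only.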

Additional observations from a re-analysis of the deposited data

Results flagged for a closer look

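By the interaction test over all genes, the elesclomol effect was called different between FDX1-OE and control cells for 4 of the 10 genes. SERPINA9 was called higher, where 13.9% of all genes were, and BCL6, MEF2B and S1PR2 lower, where 5.06% were. As given above, those 3 lost the call in several alternatives. The difference (FDX1-OE less control, log2) was 0.7086 for SERPINA9, -0.3527 for BCL6, -0.3747 for MEF2B and -0.3805 for S1PR2. For SERPINA9 both FDX1-OE libraries with elesclomol were above all 6 other libraries, as for 46.3% of all genes. For the other 3 genes both were below them, as for 14.4% of all genes. The same 2 libraries also had the lowest mitochondrial mRNA shares, 14.7% and 11.9%, and the part of this in the differences was not tested. Groups of 2 libraries were too small to look for a library far from the others.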

How the results depend on the processing

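BCL6, MEF2B, S1PR2 and SERPINA9 for elesclomol in FDX1-OE cells and for FDX1-OE against control in ES, POU2AF1 and TCF3 for elesclomol in FDX1-OE cells, and SERPINA9 in the interaction were called in every alternative run. The number of the 10 genes called for elesclomol in FDX1-OE cells was 8 and ranged from 6 to 9. For FDX1-OE against control in ES it was 7, with 4 when only the groups compared were fitted and 4 to 8 with 1 library left out. For elesclomol in control cells it was 0, with 4 under median-ratio scaling, 3 under array weights, 4 with only the groups compared and 0 to 3 with 1 library left out. For the interaction it was 4, and 1 to 6 with 1 library left out. In DMSO it was 0 throughout. The replicate numbers are not shown to pair the samples (correlations of replicate differences between groups from -0.05 to 0.079), and the replicate block left these counts at 0, 7, 0, 8 and 4. Counts over all genes moved by more than 1.5 times as follows. FDX1-OE against control in DMSO (1 gene) gave 3 with no filter, 4 with array weights and 1 to 3 with 1 library left out. In ES (5008) it gave 3026 with array weights, 3117 with only the groups compared and 2499 to 5277 with 1 library left out. Elesclomol in control cells (934) gave 58 with no filter, 231 with quantile normalisation, 2523 with array weights, 1675 with only the groups compared and 28 to 2342 with 1 library left out. The interaction (2291) gave 1339 with no filter, 1400 with quantile normalisation, 3868 with equal FPKM totals and 535 to 3462 with 1 library left out. Signs turned as follows, and the cause was not tested. With median-ratio scaling, FDX1-OE against control in ES was -0.0765 for GCSAM and -0.0935 for SPIB, elesclomol in control cells -0.1047 for SERPINA9, -0.0302 for MME and -0.0442 for SPIB, elesclomol in FDX1-OE cells -0.0007 for PAX5 and -0.183 for SPIB, and the interaction -0.1388 for SPIB. With quantile normalisation GCSAM was -0.1229 for FDX1-OE against control in ES and SERPINA9 -0.016 for elesclomol in control cells, and with equal FPKM totals MME was 0.059 for elesclomol in FDX1-OE cells. With 1 library left out, FDX1-OE against control in DMSO ran from -0.0491 to 0.0567 for MME and -0.0565 to 0.1528 for SPIB, and in ES from -0.1057 to 0.2661 for GCSAM and -0.1309 to 0.2916 for SPIB. Elesclomol in control cells ran from -0.0067 to 0.0238 for SERPINA9 and -0.1417 to 0.2809 for SPIB, and in FDX1-OE cells from -0.2325 to 0.0734 for MME and -0.0029 to 0.2064 for SPIB. The interaction ran from -0.3509 to 0.0209 for GCSAM and -0.1791 to 0.2435 for SPIB. Without counts, what depth limits could not be stated.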
